A study of Mus musculus with 18 samples.

Results

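The fibroblast and extracellular matrix genes described here are 34 genes for collagens, elastic fibre proteins, proteoglycans, matricellular proteins and matrix-cell receptors, followed over 18 microarrays of mouse lung. They were taken from a list of symbols that was chosen with earlier results of these data known. Of the 34, 31 had a probe set of their own among the 19938 genes measured. Fbn1 and Spp1 were not analysed here, and Loxl2 had only a probe set shared with other symbols, which was left out. Each of the 31 had 1 such probe set. No filter on low values was applied to them.

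The interstitial matrix of the lung is built by fibroblasts and their relatives, which secrete procollagens, elastin precursor and small proteoglycans that assemble outside the cell. Fibrillar collagens give tensile strength, elastin on a microfibril scaffold gives recoil, collagen VI links fibrils to cells, and collagen IV forms the sheet under epithelium and endothelium. Around the conducting airways these cells lie just beneath the epithelium, and after epithelial injury they are known to deposit a provisional matrix rich in fibronectin, versican and tenascin.

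All mice were a strain mixture of FVB/N with C57BL/6, and their genotype was either control or Cebpa d/d, and the labels do not name the promoter or cell type that drives the deletion. Cebpa encodes C/EBP alpha, a transcription factor of lung epithelium. Both genotypes were given naphthalene, which club cells turn into a toxic product, and were sampled at 0, 3 and 72 hr, with 3 arrays in each of the 6 groups. The age of the mice, any pooling and whether replicates were separate animals are not given, so p-values measure only the spread between these samples. The labelled tissue was terminal bronchiolar epithelium, and its markers were present at group means of 12.68 to 12.84 for the club cell gene Scgb1a1 and 12.49 to 13.25 for Cyp2f2, of 8.23 to 8.82 for Epcam and 7.21 to 7.70 for the ciliated cell gene Foxj1, and of 7.62 to 10.96 for the secretory gene Scgb3a1. Genes of other cells were also measured: Acta2 (10.97 to 11.51) of smooth muscle, Cdh5 (9.98 to 10.75) of endothelium and Sftpc (13.03 to 13.23) of alveolar type 2 cells. Other members of the smooth muscle and endothelial lists read 6.38 to 6.91 (Myocd) and 7.03 to 7.55 (Tie1). All the markers named here were picked from longer lists.

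Values are log2 RMA expression values, and levels of different probe sets are not set against each other. Array medians lay between 6.48 and 6.65 over all probe sets, and arrays of a group correlated at 0.973 to 0.992. Cebpa, read first as a check of the labels, was 10.30 to 10.52 and 9.69 to 9.87 in control arrays at 3 and 72 hr, against 7.83 to 8.27, 8.07 to 8.37 and 7.90 to 9.07 in Cebpa d/d arrays at 0, 3 and 72 hr, with the 9.07 in replicate 1 at 72 hr. In control arrays at 0 hr it ran from 7.89 to 10.17, and the array labelled control 0 hr replicate 1, at 7.89, went against its label. By Xist and Eif2s3y, both 72 hr groups held 3 females each, and every 0 and 3 hr group held 1 female and 2 males. The array labelled Cebpa d/d 72 hr replicate 1 stood apart for the matrix genes: 28 of the 31 were lower in it than in both other arrays of its group, against 33.9% of all genes, with a median difference from their mean of -0.44 against 0.02 over all genes. Values without these arrays are given where leaving them out moves a result. Cebpa d/d 72 hr replicate 1 was singled out on these genes' own values. Higher Cebpa d/d 72 hr levels without it follow from that choice.

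Most of the genes had a similar course over time in control mice. Their group mean was lowest in control at 3 hr for 19 of the 31 and highest in control at 72 hr for 22. Cebpa d/d at 3 hr was lowest for 4, and Cebpa d/d at 72 hr was highest for 5. The shares of all genes with these lowest and highest groups are not given here. The 3 control arrays at 3 hr had median deviations from the genes' own means of -0.42 to -0.25, against 0.30 to 0.39 at 72 hr. These tissue samples hold several cell types, so fewer cells of a type and less RNA per cell cannot be told apart.

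**Figure D1:**
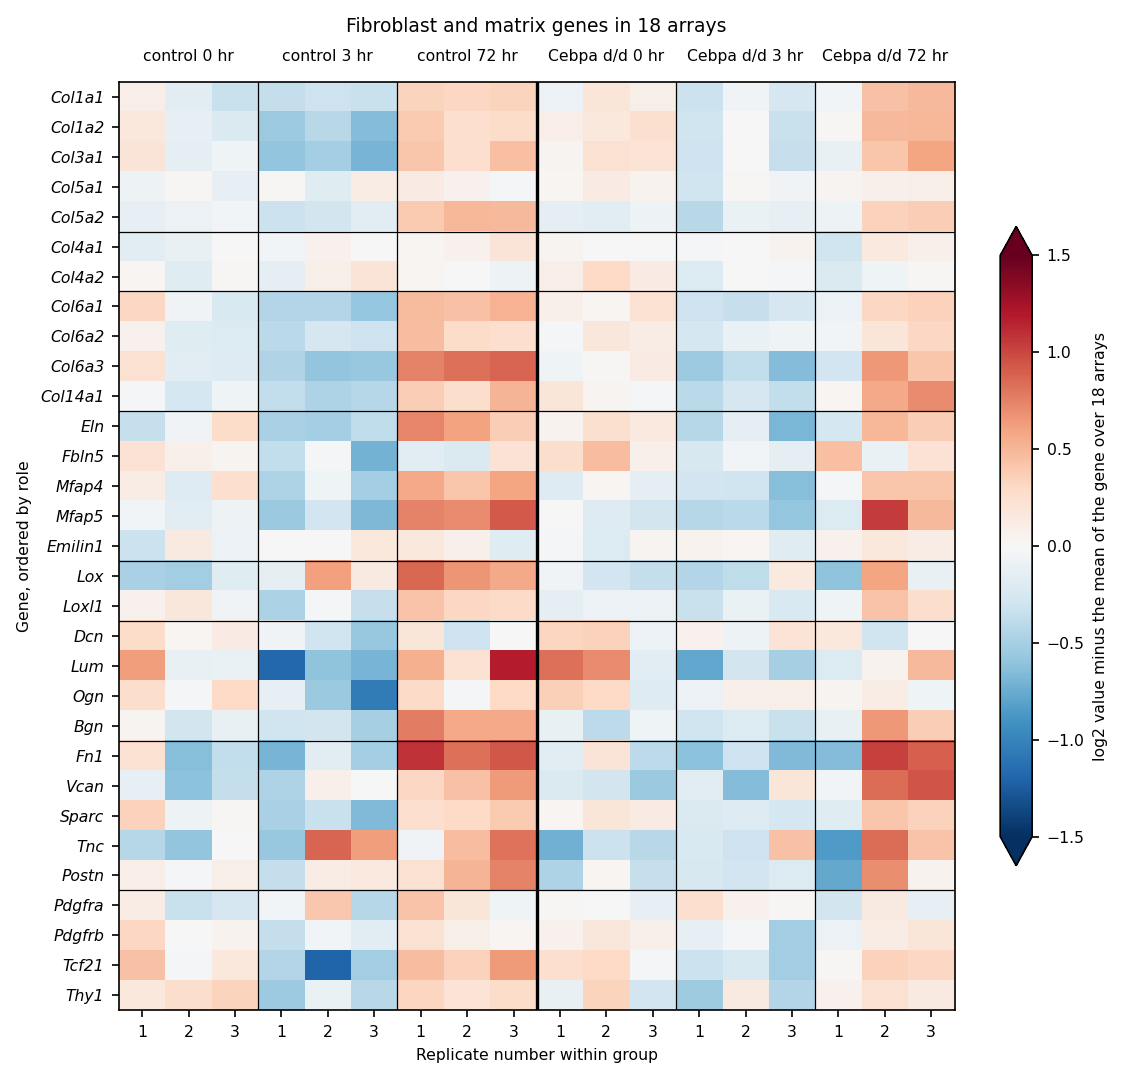
Log2 value of each of the 31 genes in each of the 18 arrays, minus the gene's mean over all arrays; rows are genes ordered by role, columns are replicates 1 to 3 of each group, and the colour scale ends at a deviation of 1.5 in either direction. The control 3 hr columns are mostly blue and the control 72 hr columns mostly red; in the Cebpa d/d 72 hr group replicate 1 is paler or blue beside replicates 2 and 3.

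The comparison of 72 hr with 3 hr in control mice asked how the airway changed between early injury and 72 hr. Here 19 of the 31 genes rose and 0 fell, against 11.2% of all genes that rose and 8.57% that fell, and the median difference of the 31 was 0.66 against -0.07 over all genes. The arrays of the 2 times did not overlap, with 72 hr higher, for 22 of the 31, against 17.1% of all genes. Calls are from limma's moderated test with Benjamini-Hochberg adjustment over 19938 genes, at an adjusted p under 0.05, and every difference is given ± SE between groups of 3 arrays. Between 17 and 21 of the 31 rose in each of the alternatives tried.

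Among the fibrillar collagens, which form the load-bearing fibres of the interstitium, 4 of 5 rose from 3 to 72 hr in control mice. Col3a1, the chain of type III collagen, read 7.80, 7.88 and 7.69 in the control arrays at 3 hr and 8.80, 8.65 and 8.84 at 72 hr. It rose by 0.97 ± 0.15 (1.96-fold; adjusted p = 0.000364), with a clear gap between the groups. Col1a2, a chain of type I collagen, went from 7.80, 7.93 and 7.70 to 8.74, 8.60 and 8.62, a rise of 0.85 ± 0.13 (adjusted p = 0.000462). Its partner Col1a1 was tightly grouped at both times, at 7.93, 7.98 and 7.96 and then 8.63, 8.60 and 8.63. It rose by 0.66 ± 0.13 (adjusted p = 0.00264). Col5a2, a regulatory collagen inside type I fibrils, went from 6.60, 6.65 and 6.76 to 7.32, 7.43 and 7.41, a rise of 0.71 ± 0.11 (adjusted p = 0.000441). Col5a1, which encodes another chain of type V collagen, differed by 0.07 ± 0.09 (adjusted p = 0.598), with array values of 6.97 to 7.26 at 3 hr and 7.13 to 7.27 at 72 hr that overlapped.

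All 4 collagens of types VI and XIV rose. Col6a3, the largest chain of the microfibrillar collagen VI, read 7.86, 7.72 and 7.74 at 3 hr and 9.06, 9.14 and 9.19 at 72 hr, and its rise of 1.35 ± 0.17 (2.55-fold; adjusted p = 0.00011) had the smallest adjusted p among the 31 genes. Col6a1 went from 8.03, 8.03 and 7.90 to 8.95, 8.92 and 9.00 (0.97 ± 0.13, adjusted p = 0.000123). Col6a2 went from 7.47, 7.64 and 7.57 to 8.35, 8.16 and 8.14 (0.65 ± 0.11, adjusted p = 0.000588). The 3 chains of collagen VI thus rose together, each without overlap between the times. Col14a1, a fibril-associated collagen, went from 8.20, 8.10 and 8.15 to 8.93, 8.83 and 9.08 (0.80 ± 0.14, adjusted p = 0.000857).

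The basement membrane collagens did not pass. Col4a1 read 7.89, 8.00 and 7.93 at 3 hr and 7.96, 8.00 and 8.14 at 72 hr in control mice, a difference of 0.09 ± 0.10 (adjusted p = 0.52; 95% interval -0.12 to 0.30). Col4a2 read 7.29, 7.51 and 7.62 and then 7.46, 7.42 and 7.35 (-0.07 ± 0.10, adjusted p = 0.656; -0.28 to 0.15). Neither passed in any of the 11 contrasts. The genes share a promoter region: in the RefSeq table their starts lie 21 bases apart on opposite strands of chromosome 8, and their windows overlap by 78 bases.

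The sequence upstream of 4 of the fibrillar and collagen VI genes is shown. Those of Tcf21 and Bgn, also among the genes with the smallest adjusted p, are not shown. Each run is the 250 bases before the annotated start, on the gene's own strand and 5′ to 3′, from RefSeq on GRCm38.p6; capitals mark the motifs named after the sequences, on either strand. The regions are chr1:90843972-90844221 (minus strand) for Col6a3, chr10:76726045-76726294 (minus) for Col6a1, chr1:45311288-45311537 (plus) for Col3a1 and chr6:4505368-4505617 (plus) for Col1a2.
Col6a3: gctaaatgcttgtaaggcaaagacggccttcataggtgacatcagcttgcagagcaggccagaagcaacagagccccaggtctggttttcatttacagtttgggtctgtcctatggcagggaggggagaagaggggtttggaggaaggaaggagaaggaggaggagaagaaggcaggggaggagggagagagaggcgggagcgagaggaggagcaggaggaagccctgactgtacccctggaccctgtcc
Col6a1: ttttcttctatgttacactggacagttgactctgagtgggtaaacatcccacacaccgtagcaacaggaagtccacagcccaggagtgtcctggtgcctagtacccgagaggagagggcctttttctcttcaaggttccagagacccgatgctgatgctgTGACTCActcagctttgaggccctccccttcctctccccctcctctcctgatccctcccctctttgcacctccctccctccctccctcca
Col3a1: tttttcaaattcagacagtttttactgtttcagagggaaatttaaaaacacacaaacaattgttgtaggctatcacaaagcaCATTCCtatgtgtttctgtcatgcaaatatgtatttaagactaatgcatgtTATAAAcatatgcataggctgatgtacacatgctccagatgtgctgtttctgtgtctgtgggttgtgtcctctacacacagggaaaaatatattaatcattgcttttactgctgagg
Col1a2: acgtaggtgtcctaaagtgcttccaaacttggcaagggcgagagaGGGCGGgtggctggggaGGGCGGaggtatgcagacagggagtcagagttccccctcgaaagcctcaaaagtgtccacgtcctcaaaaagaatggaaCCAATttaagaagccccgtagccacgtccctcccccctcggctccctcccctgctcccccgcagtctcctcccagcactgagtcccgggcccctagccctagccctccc
None of the searched motifs was shared between any of the 4 sequences. Col6a1 holds an AP-1 match (TGANTCA) at -90 to -84, Col3a1 a TATAAA at -117 to -112 and the TEAD letters GGAATG on the opposite strand at -168 to -163. Col1a2 holds CCAAT at -109 to -105 and GGGCGG at -205 and -188, and Col6a3 holds no match. Windows of 300 bases, from 250 before to 50 after a start, were given for 18 of the 31 genes (22 windows of 32851), and both strands were searched. GGGCGG was in 50% of the member windows against 35.7% of all, TATAAA in 22.7% against 13.6%, CCAAT in 31.8% against 37.4%, GGAATG in 13.6% against 14.7% and TGANTCA in 4.55% against 7.81%. The C/EBP letters TTGCNNAA were in 13.6% against 10.8% (windows of Col6a2, Pdgfra and Postn), the Smad letters AGCCAGAC in 9.09% against 1.29% (Col4a2 and Postn), and the CArG box in 0% against 1.63%. None of the matches in the 4 sequences overlapped another. A match is a description of the letters, and no test was made.

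Elastic fibre genes rose in part, 3 of 5. Eln, which encodes tropoelastin, went from 7.97, 7.94 and 8.07 at 3 hr to 9.19, 9.06 and 8.83 at 72 hr in control arrays, a rise of 1.03 ± 0.19 (2.04-fold; adjusted p = 0.0013). Mfap5, a microfibril glycoprotein, went from 8.81, 9.08 and 8.69 to 10.12, 10.08 and 10.29 (1.30 ± 0.21, 2.46-fold; adjusted p = 0.000472). Mfap4, a fibrinogen-like microfibril protein, went from 9.14, 9.55 and 9.11 to 10.18, 10.03 and 10.20 (0.87 ± 0.15, adjusted p = 0.000975). For all 3 the lowest array at 72 hr lay above the highest at 3 hr. Fbln5, which helps to assemble elastic fibres, differed by 0.31 ± 0.17 (adjusted p = 0.193) and Emilin1 by -0.04 ± 0.12 (adjusted p = 0.825), with overlapping arrays.

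The lysyl oxidases cross-link collagen and elastin. Loxl1, the member tied to elastic fibres, went from 7.98, 8.42 and 8.10 to 8.88, 8.76 and 8.74 in control mice (0.62 ± 0.12, adjusted p = 0.00255). Lox had a course of its own. It read 7.51, 7.47 and 7.81 at 0 hr, 7.86, 8.62 and 8.14 at 3 hr and 8.86, 8.66 and 8.57 at 72 hr. The 3 hr arrays lay above the 0 hr arrays (0.61 ± 0.24, adjusted p = 0.17), the only gene of the 31 higher without overlap at 3 hr in control mice, and Lox rose by 1.10 ± 0.24 between 0 and 72 hr (2.14-fold; adjusted p = 0.0119).

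Of the small leucine-rich proteoglycans, which bind collagen fibrils and set their spacing, 3 of 4 rose from 3 to 72 hr. Bgn (biglycan) went from 10.46, 10.48 and 10.26 to 11.53, 11.33 and 11.33, a rise of 0.99 ± 0.15 (1.99-fold; adjusted p = 0.000357). Lum (lumican) read 7.09, 6.36 and 6.37 at 0 hr, 5.29, 5.87 and 5.77 at 3 hr and 7.01, 6.70 and 7.65 at 72 hr. Its rise after 3 hr, 1.47 ± 0.29 (2.78-fold; adjusted p = 0.00233), was the largest difference of the 31 and also one of the least precise. Ogn (osteoglycin) rose by 0.77 ± 0.19 (adjusted p = 0.00957), and Dcn (decorin) differed by 0.27 ± 0.16 (adjusted p = 0.244).

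Fibronectin, versican and the matricellular proteins were the most variable group. Fn1 read 9.14, 9.66 and 9.33 at 3 hr and 10.92, 10.66 and 10.76 at 72 hr in control mice and rose by 1.40 ± 0.33 (2.65-fold; adjusted p = 0.00733). Sparc, a collagen-binding protein, went from 11.86, 12.00 and 11.68 to 12.60, 12.64 and 12.73 (0.81 ± 0.14, adjusted p = 0.000863). Vcan (versican, 0.59 ± 0.24, adjusted p = 0.0911) and Postn (periostin, 0.53 ± 0.25, adjusted p = 0.149) did not pass, although their arrays did not overlap. Tnc (tenascin C) had 3 hr arrays at 6.62, 8.06 and 7.81, a spread of 0.77 (SD, n = 3) that covered the 72 hr values of 7.13, 7.65 and 8.00.

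Among the receptor, surface and lineage genes, 2 of 4 rose. Tcf21, a transcription factor of the lung mesenchyme, read 8.04, 7.28 and 7.96 at 3 hr and 8.94, 8.83 and 9.12 at 72 hr, a rise of 1.21 ± 0.18 (2.31-fold; adjusted p = 0.000245). Thy1, a surface protein of fibroblasts and T cells, rose by 0.63 ± 0.17 (adjusted p = 0.0162). The PDGF receptors, which mark fibroblasts (Pdgfra) and pericytes with fibroblasts (Pdgfrb), did not pass, with differences of 0.20 ± 0.18 (adjusted p = 0.43) and 0.30 ± 0.13 (adjusted p = 0.0999).

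**Figure D2:**
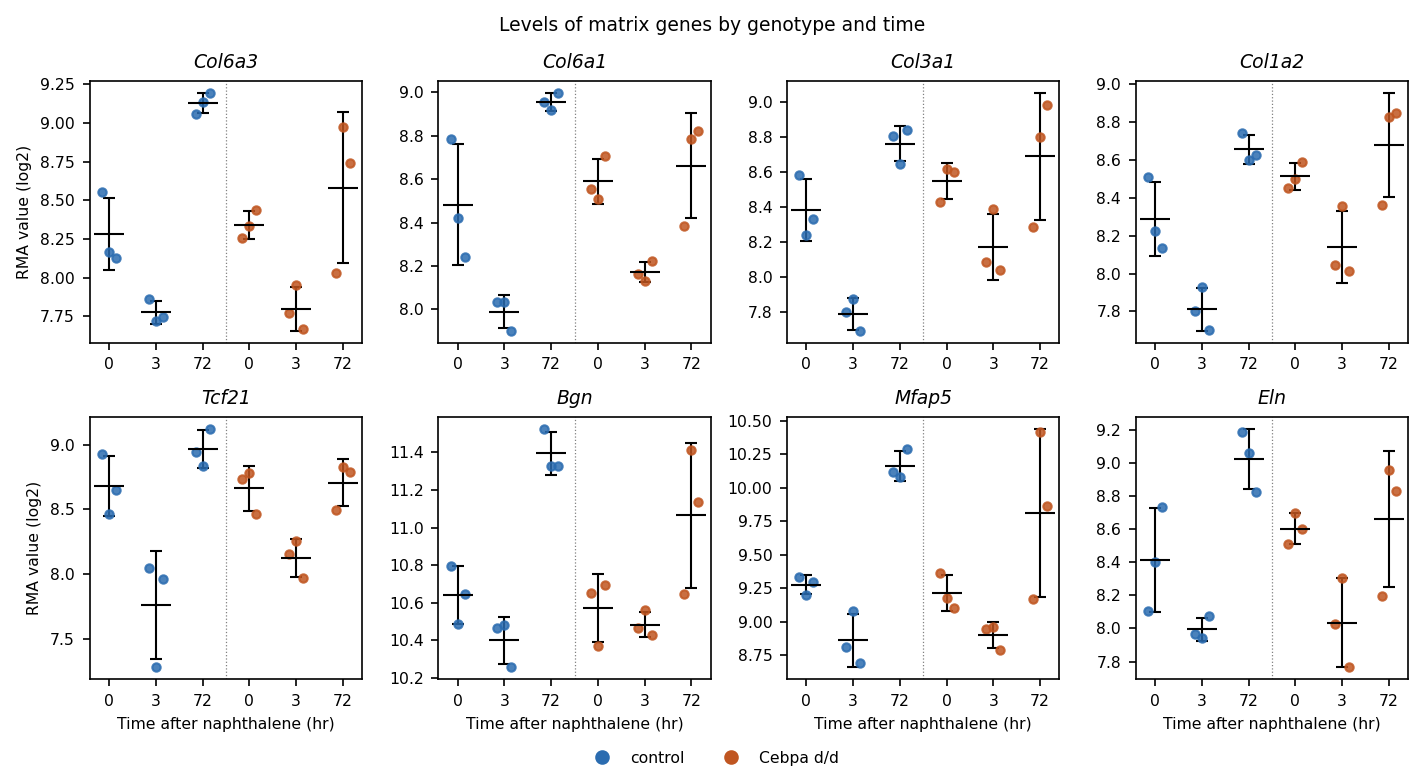
Log2 RMA value by time after naphthalene (hr) for 8 of the genes, with each point an array, the long bar the mean and the error bars the SD of 3 arrays. The 8 are among the genes kept because they passed without overlap, so gaps between groups follow in part from that choice. In control mice (blue) the 72 hr arrays lie above all 3 hr arrays in every panel. In Cebpa d/d mice (orange) the low array at 72 hr is replicate 1, the left point, in every panel. That array was singled out on these genes' own values.

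The early comparison, 3 hr with 0 hr in control mice, asked what the injury did at once. Of the 31 genes 5 fell and 0 rose, against 1.62% of all genes that fell and 1.88% that rose, and 23 of the 31 differences were negative, with a median of -0.31 against 0.03 over all genes. Arrays at 3 hr lay below all arrays at 0 hr for 18 genes, against 8.98% of all genes, and above them for 1 (11.3%). Tcf21 went from 8.92, 8.46 and 8.65 at 0 hr to the 3 hr values above and fell by 0.92 ± 0.18 (adjusted p = 0.0102). Ogn, at 10.41, 10.11 and 10.45 and then 10.02, 9.59 and 9.10, fell by 0.75 ± 0.19 (adjusted p = 0.0376). Sparc fell from 12.69, 12.26 and 12.36 by 0.59 ± 0.14 (adjusted p = 0.0285), Col3a1 from 8.58, 8.24 and 8.33 by 0.59 ± 0.15 (adjusted p = 0.0385) and Col6a1 from 8.79, 8.42 and 8.24 by 0.49 ± 0.13 (adjusted p = 0.0431). In each of the 5 the groups were apart. Thy1 (-0.61 ± 0.17, adjusted p = 0.0568), Col1a2 (-0.48 ± 0.13, adjusted p = 0.0583) and Lum (-0.96 ± 0.29, adjusted p = 0.0743) came next and did not pass. Leaving out replicate 1 of the control 0 hr arrays or replicate 3 of the control 3 hr arrays left 1 gene called. With replicate 3 of the former or replicate 2 of the latter left out 2 were called, and with replicate 1 of the control 72 hr group or of the Cebpa d/d 3 hr group left out 3 were.

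The comparison of 72 hr with 0 hr in control mice asked how far levels at 72 hr differed from those at the start. Here 11 of the 31 rose and 0 fell, against 4.95% of all genes that rose and 2.2% that fell, with a median of 0.44 against -0.02, and the 72 hr arrays lay above all 0 hr arrays for 18 genes (13.1% of all genes). The 11 were Fn1, which had read 10.07, 9.20 and 9.47 at 0 hr (1.20 ± 0.33, adjusted p = 0.0347), Lox (above), Mfap5 (0.89 ± 0.21, adjusted p = 0.0152), Col6a3 (0.85 ± 0.17, adjusted p = 0.00771), Vcan (0.82 ± 0.24, adjusted p = 0.0479), Bgn (0.75 ± 0.15, adjusted p = 0.00666), Col5a2 (0.54 ± 0.11, adjusted p = 0.00795), Col14a1, Col6a1, Col1a1 and Col6a2. The last 4 rose by 0.44 to 0.49. Vcan, at 7.47, 6.97 and 7.23 and then 7.90, 8.03 and 8.22, and Lox passed here and not between 3 and 72 hr. By contrast Ogn (0.01 ± 0.19), Thy1 (0.02 ± 0.17), Pdgfrb (-0.01 ± 0.13) and Col4a2 (0.02 ± 0.10) were near their 0 hr level, and Dcn was at -0.18 ± 0.16. The 11 became 3 when replicate 2 at 0 hr was left out and 6 when replicate 3 was. Leaving out replicate 1 or 3 at 72 hr gave 5, and leaving out replicate 2 gave 6. Without control 0 hr replicate 1, whose Cebpa went against its label, the same 11 passed. The 72 hr arrays are all female, and with sex as a term 5 passed: Bgn, Col5a2, Col6a1, Col6a2 and Col6a3. In this comparison 6 of 9 endothelial markers fell (median -0.53), all 7 proliferation markers rose (1.66) and 3 of 8 macrophage markers rose (0.63), and 0 of 10 smooth muscle markers passed (0.06). Their part in the result was not tested. Of the genes of collagen synthesis and processing P4ha3 (0.82 ± 0.24) rose in this comparison. P4ha2 (-0.79 ± 0.18), P3h2 (-0.65 ± 0.16), Pcolce2 (-0.48 ± 0.12) and Mia3 (-0.39 ± 0.11) fell, and the other pathway lists are not given for it.

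**Figure D3:**
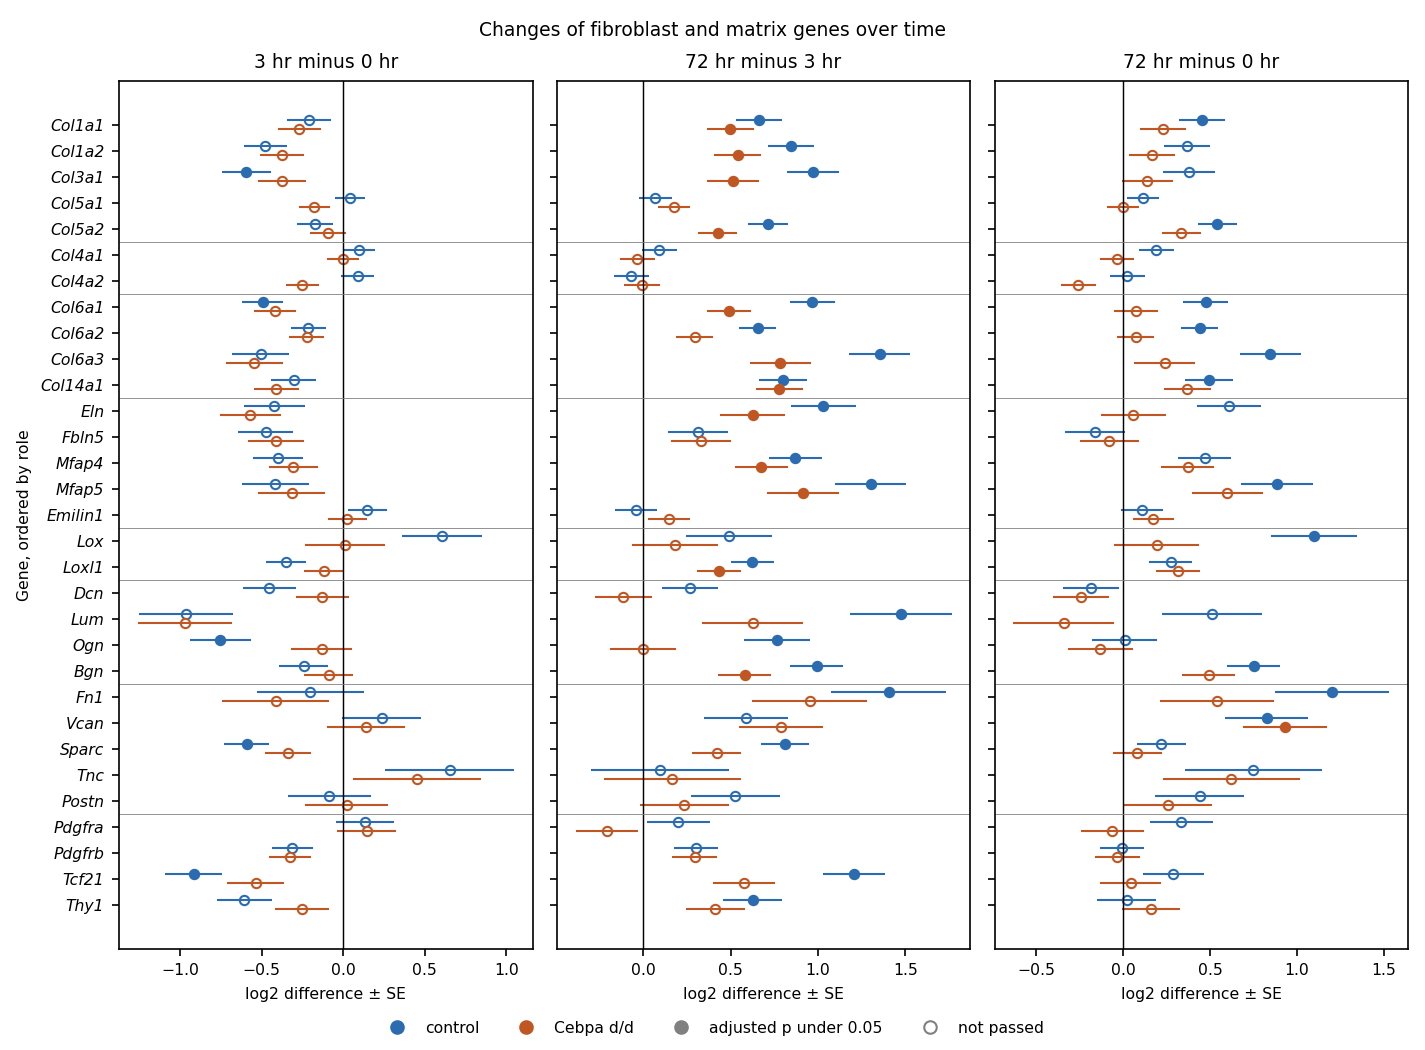
Log2 difference ± SE (horizontal axis) of each of the 31 genes between 0 and 3 hr, 3 and 72 hr, and 0 and 72 hr, in control (blue) and Cebpa d/d (orange) mice; filled points passed at an adjusted p under 0.05. The middle panel holds 19 filled control points and 12 filled Cebpa d/d points, all above 0; the left panel holds 5 filled control points, all below 0.

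In Cebpa d/d mice the same comparisons were made on arrays of their own. From 3 to 72 hr 12 of the 31 rose and 0 fell, against 4.88% of all genes that rose and 3.67% that fell, with a median of 0.43 against 0.00, and the arrays were apart with 72 hr higher for 16 genes (15.3% of all genes). All 12 were among the 19 that rose in control mice: they made up 63.2% of the control list and 100% of their own, where over all genes called in either direction the shared genes were 34.7% and 80%. Col14a1 read 8.16, 8.32 and 8.20 at 3 hr and 8.60, 9.14 and 9.28 at 72 hr and rose by 0.78 ± 0.14 (adjusted p = 0.00208). Mfap5 went from 8.95, 8.97 and 8.79 to 9.17, 10.42 and 9.86 (0.91 ± 0.21, adjusted p = 0.0113), and Col6a3 from 7.77, 7.95 and 7.67 to 8.03, 8.97 and 8.74 (0.78 ± 0.17, adjusted p = 0.0107). In all 3 the first array at 72 hr is the low one. Mfap4 rose by 0.68 ± 0.15 (adjusted p = 0.011), Bgn by 0.58 ± 0.15 (adjusted p = 0.0247), Col1a2 by 0.54 ± 0.13 (adjusted p = 0.0188), and Col1a1, Col3a1, Col5a2, Col6a1, Eln and Loxl1 by 0.43 to 0.63. For Col3a1 and Eln the arrays overlapped, since replicate 1 at 72 hr, at 8.28 and 8.20, lay within the 3 hr values.

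The 7 genes called in control mice and not in Cebpa d/d mice were Col6a2, Lum, Ogn, Fn1, Sparc, Tcf21 and Thy1. The difference between the genotypes' changes from 3 to 72 hr was not tested. In Cebpa d/d mice their differences were, in that order, 0.30 ± 0.11, 0.63 ± 0.29, 0.00 ± 0.19, 0.95 ± 0.33, 0.42 ± 0.14, 0.58 ± 0.18 and 0.41 ± 0.17, with adjusted p from 0.0512 (Tcf21) to 1 (Ogn). Ogn read 10.06, 10.22 and 10.23 at 3 hr and 10.19, 10.26 and 10.08 at 72 hr in Cebpa d/d mice, a level it had in control mice at 0 and 72 hr. Without Cebpa d/d 72 hr replicate 1 the 12 called genes became 17. Of the 7 genes above, Col6a2 (adjusted p = 0.0362), Fn1 (adjusted p = 0.000467), Sparc (adjusted p = 0.00447) and Tcf21 (adjusted p = 0.0376) then passed in Cebpa d/d mice too, and Lum (adjusted p = 0.155), Ogn (adjusted p = 0.994) and Thy1 (adjusted p = 0.172) did not. Leaving out replicate 1 or 3 at 3 hr gave 4 and 3, and leaving out replicate 2 or 3 at 72 hr gave 1 and 2.

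From 0 to 3 hr 0 of the 31 passed limma's test in Cebpa d/d mice, against 1.72% of all genes that fell and 2.66% that rose. An unadjusted p under 0.05 was found for 12, and the share of all genes at that cut is not given here. The median was -0.25 against -0.02, 25 of the 31 differences were negative, and the 3 hr arrays lay below all 0 hr arrays for 16 genes (11.9% of all genes). Lum was 7.30, 7.18 and 6.30 at 0 hr and 5.69, 6.20 and 5.97 at 3 hr (-0.97 ± 0.29, adjusted p = 0.0705), Col6a1 differed by -0.42 ± 0.13 (adjusted p = 0.0786) and Col6a3 by -0.55 ± 0.17 (adjusted p = 0.0958). Without the array labelled Cebpa d/d 72 hr replicate 1, which changes the shared spread, 4 genes fell, and without both arrays in doubt 8 did. From 0 to 72 hr 1 of the 31 rose and 0 fell, against 3.39% of all genes that rose and 1.42% that fell: Vcan went from 7.37, 7.31 and 7.04 to 7.55, 8.43 and 8.53 (0.93 ± 0.24, adjusted p = 0.0327). The median was 0.16 against -0.02. Without replicate 1 at 72 hr 8 rose, among them Mfap5 (0.92 ± 0.15, adjusted p = 0.00114), Fn1 (1.08 ± 0.22, adjusted p = 0.00713), Bgn (0.70 ± 0.13, adjusted p = 0.0032) and Col6a3 (0.51 ± 0.13, adjusted p = 0.024). The count was 0, Vcan included, without any one of the 3 Cebpa d/d arrays at 0 hr and without replicate 2 or 3 at 72 hr.

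Control and Cebpa d/d changes ran the same way for 27 of the 31 genes from 3 to 72 hr (73.4% of all genes), for 27 from 0 to 3 hr (63.5%) and for 26 from 0 to 72 hr (71.4%).

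The genotypes themselves were then compared at each time, which asked whether loss of Cebpa altered the matrix genes. At 0 hr 0 of the 31 passed in limma's test, against 0.336% of all genes, 1 had an unadjusted p under 0.05 and the median was 0.06. Without control 0 hr replicate 1, whose Cebpa was at the Cebpa d/d level, 0 passed again, the median was 0.12, and 0.391% of all genes were higher and 0.376% lower. At 3 hr 0 passed (0.015% of all genes), 4 had an unadjusted p under 0.05 and the median was again 0.06. The Cebpa d/d arrays lay above all control arrays for 5 genes (3.74% of all genes). The 4 were Ogn, higher in Cebpa d/d without overlap by 0.60 ± 0.19 (adjusted p = 0.792), Col3a1 (0.38 ± 0.15, adjusted p = 0.953), Dcn (0.37 ± 0.16, adjusted p = 0.977) and Col1a2 (0.33 ± 0.13, adjusted p = 0.959). At 72 hr 0 passed (0.0702% of all genes) and 5 had an unadjusted p under 0.05. The median was -0.16 against 0.02 over all genes, and 25 of the 31 differences were negative. Lower without overlap were 4 genes (6.19% of all genes): Col6a3, Col6a1, Col5a2 and Tcf21. For the genotype contrasts the shares of all genes at an unadjusted p under 0.05 and with a negative difference are not given here. Nor is the median over all genes at 0 and 3 hr.

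The genotype differences at 72 hr were smaller without the array that stood apart. That array was singled out by low values of these same genes, so smaller differences without it follow from the choice. Lox was 8.86, 8.66 and 8.57 in control and 7.39, 8.59 and 7.89 in Cebpa d/d arrays (-0.74 ± 0.24, adjusted p = 0.637), Col6a3 differed by -0.55 ± 0.17 (adjusted p = 0.599) and Lum by -0.54 ± 0.29 (adjusted p = 0.815). Without replicate 1 of the Cebpa d/d group these were -0.46 ± 0.23, -0.27 ± 0.13 and -0.38 ± 0.32, and Fn1 went from -0.52 ± 0.33 to 0.02 ± 0.22. The median of the 31 without it was -0.02. The interactions, which subtract the control change since 0 hr from the Cebpa d/d change, gave 0 of 31 at 3 hr and at 72 hr, against 0% and 0.0953% of all genes, with 2 and 4 genes at an unadjusted p under 0.05. The share of all genes at that cut, and the median and signs over all genes, are not given here. At 72 hr the smallest adjusted p was that of Lox (-0.91 ± 0.35, adjusted p = 0.983), 26 of the 31 were negative and the median was -0.20, or -0.06 without Cebpa d/d 72 hr replicate 1 and -0.26 without control 0 hr replicate 1. With 3 arrays a group the 95% intervals of a genotype difference stay wide: at 72 hr that of Col1a1 was -0.32 to 0.25, that of Eln -0.76 to 0.03 and that of Fn1 -1.21 to 0.17.

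The array labelled Cebpa d/d 72 hr replicate 1 was low in some matrix genes far more than in others. Against the mean of its 2 group mates Fn1 was at -1.62, Tnc at -1.48, Postn at -1.14, Mfap5 at -0.97, Vcan at -0.93 and Lox at -0.85. Col5a1 (-0.04), Emilin1 (-0.07) and Thy1 (-0.12) were close to the mates, and Ogn, Dcn and Fbln5 were not below both. All 7 proliferation markers (median -0.77), 9 of 10 smooth muscle markers (-0.39), all 7 alveolar type 1 markers (-0.32) and 5 of 8 macrophage markers (-0.56) were below both mates in the same array, as were 1 of 9 endothelial (0.03) and 5 of 10 airway epithelial markers (-0.01). Over all genes 33.9% were below both, with a median of 0.02. Of 26 other fibroblast markers 12 were below both (-0.06), and of 37 other interstitial matrix genes 21 (-0.10). Pericytes had 4 of 8 (-0.14) and mesothelium 3 of 8 (0.14). The part of these cells in the result was not tested. The median SD of the 31 genes was 0.28 in that group, against 0.11 to 0.18 in the other 5, and 0.11 over all genes.

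Other genes of the matrix pathway, on lists also chosen with earlier results known, were read in the same contrast of 72 with 3 hr in control mice. There 11.2% of all genes rose and 8.57% fell. Of 37 other interstitial matrix genes 8 rose and 0 fell (median 0.11), with Matn2 (matrilin 2, 1.37 ± 0.18), Hmcn1 (hemicentin 1, 1.20 ± 0.16), Aspn (asporin, 1.06 ± 0.21) and Sparcl1 (0.62 ± 0.13) at the smallest adjusted p. Of 22 other basement membrane genes 6 rose and 0 fell (0.21), led by the laminin chain Lama4 (1.11 ± 0.15), the peroxidasin Pxdn (0.83 ± 0.13), Lama2 (0.79 ± 0.14) and Lamb1 (0.78 ± 0.14). Of 24 genes of collagen synthesis and processing 6 rose and 2 fell (0.14): Plod1, a lysyl hydroxylase, rose by 0.61 ± 0.10, the procollagen enhancer Pcolce by 0.89 ± 0.18 and the prolyl hydroxylase subunit P4ha3 by 1.13 ± 0.24, while P4ha2 (-0.74 ± 0.18) and P4ha1 (-0.71 ± 0.18) fell.

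Of 26 other fibroblast markers 10 rose and 0 fell (median 0.30), with Cdh11 (cadherin 11, 1.52 ± 0.17), Vim (vimentin, 0.81 ± 0.12), Slit2 (1.06 ± 0.16) and Meox2 (1.65 ± 0.30) first. Of 20 matrix receptors 7 rose and 1 fell (0.23), among them the syndecans Sdc2 (0.85 ± 0.12) and Sdc1 (0.52 ± 0.11) and the integrin chains Itga8 (0.91 ± 0.17) and Itgb6 (0.79 ± 0.20). Of 4 PDGF ligands 1 rose, Pdgfd (0.66 ± 0.19). The 23 genes of the TGF-beta pathway, a main inducer of collagen, had 2 higher and 2 lower (median -0.05), shares near those over all genes: the ligand Tgfb3 (0.94 ± 0.17) and the receptor Tgfbr2 (0.46 ± 0.14) rose, and the antagonists Tgif1 (-0.61 ± 0.18) and Bambi (-0.39 ± 0.13) fell. In Cebpa d/d mice, where 4.88% of all genes rose and 3.67% fell, the counts higher and lower were 3 and 1 of 37 interstitial, 4 and 0 of 22 basement membrane, 2 and 1 of 24 collagen processing, 6 and 0 of 26 fibroblast, 2 and 0 of 20 receptor, 0 and 0 of 4 PDGF and 1 and 3 of 23 TGF-beta genes. Several of these are near the share over all genes.

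Between 0 and 3 hr in control mice 1.62% of all genes fell and 1.88% rose. Hmcn1 (-1.09 ± 0.16) fell and Thbs1 (thrombospondin 1, a matricellular protein, 2.17 ± 0.50) rose among the interstitial genes. Pxdn (-0.81 ± 0.13) and Lama4 (-0.78 ± 0.15) fell in the basement membrane list. Meox2 (-1.37 ± 0.30), Cdh11 (-0.69 ± 0.17) and Limch1 (-0.56 ± 0.15) fell among the fibroblast markers, 3 of 26 with 0 higher. Plod1 (-0.49 ± 0.10) fell among the collagen processing genes and Pdgfd (-0.92 ± 0.19) among the PDGF ligands. Of the receptors Sdc2 (-0.63 ± 0.12), Itga8 (-0.81 ± 0.17) and Itga1 (-0.94 ± 0.21) fell and Itga5 (0.78 ± 0.19) rose, and in the TGF-beta list Tgfb3 (-0.79 ± 0.17) and the receptor Acvrl1 (-0.51 ± 0.13) fell and Tgif1 (0.78 ± 0.18) rose. In Cebpa d/d mice 2.66% of all genes rose and 1.72% fell. Thbs1 (2.29 ± 0.50) and Tgif1 (0.93 ± 0.18) rose there too. Pxdn (-0.76 ± 0.13), Itga1 (-1.11 ± 0.21), Pdgfd (-0.73 ± 0.19) and Acvrl1 (-0.50 ± 0.13) fell there too. Bambi (0.58 ± 0.13) rose and Tbx5 (-0.75 ± 0.14) and Fgf10 (-0.74 ± 0.16) fell in Cebpa d/d mice without passing in control mice.

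Markers of some other cells moved with the matrix genes, and their part in the results was not tested. In control mice 11.2% of all genes rose and 8.57% fell from 3 to 72 hr. From 3 to 72 hr in control mice 5 of 10 smooth muscle markers rose (median 0.52), with summed linear levels of 7479 to 8828 at 3 hr and 10730 to 11794 at 72 hr. So did 4 of 8 macrophage markers (0.40; 1313 to 2063, then 2291 to 3392), 6 of 7 proliferation markers (1.86; 588 to 689, then 2406 to 2587), 4 of 8 alveolar type 2 markers (0.43; 15343 to 16768, then 19427 to 23000) and 3 of 7 alveolar type 1 markers (0.31; 4128 to 4759, then 5219 to 5893). The summed level of the 31 matrix genes was 14735 to 17580 at 3 hr and 25453 to 27629 at 72 hr. Endothelium had 1 of 9 higher (median -0.10), pericytes 1 higher and 1 lower of 8, mesothelium 1 of 8, cardiac muscle 1 of 12 and airway epithelium 2 higher and 1 lower of 10. Most of these counts are near the shares over all genes. Cartilage had 0 of 10 in either direction (median -0.18). From 0 to 3 hr in control mice 3 of 10 smooth muscle and 2 of 9 endothelial markers fell, against 1.62% of all genes. Smooth muscle had 0 of 10 called from 3 to 72 hr in Cebpa d/d mice (median 0.16), where summed levels were 7879 to 12985 at 72 hr.

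**Figure D4:**
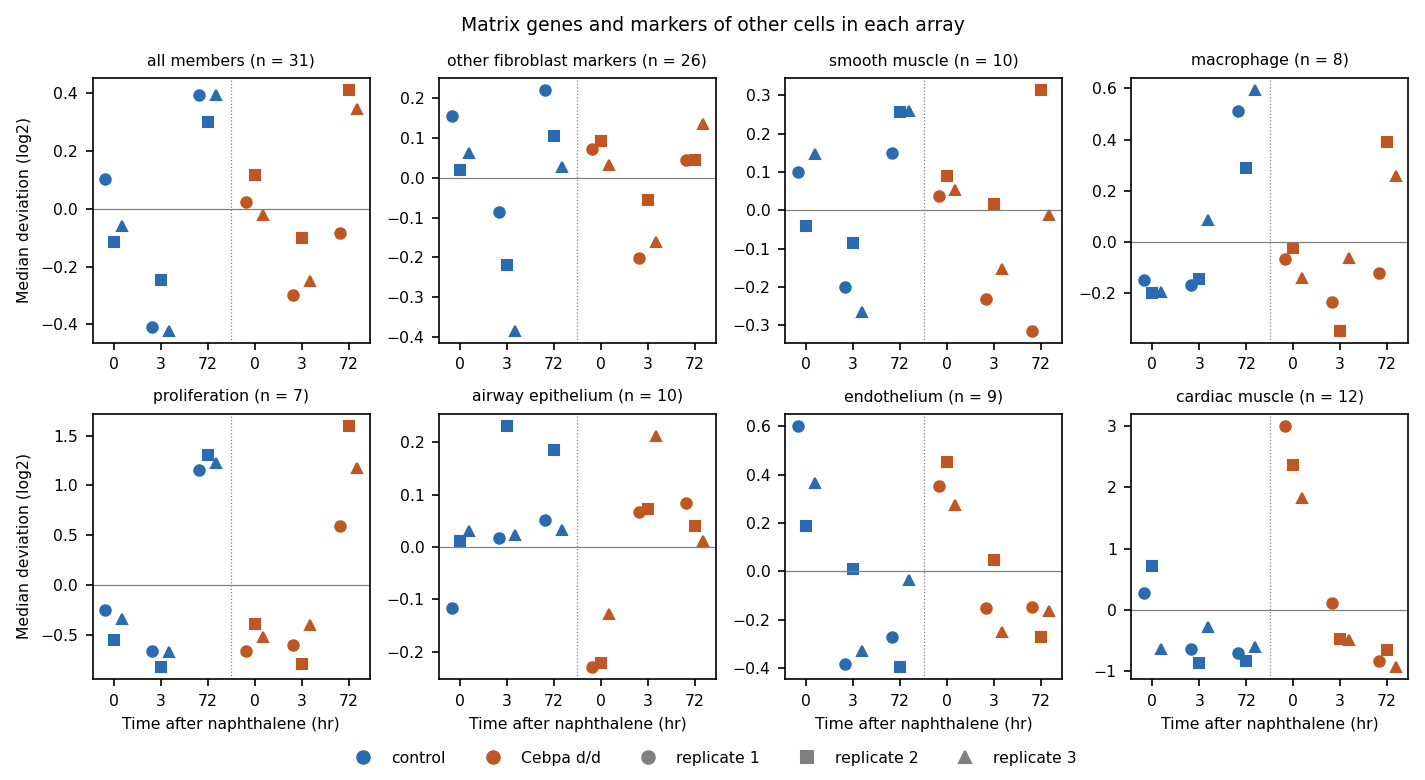
Median deviation (log2) of 8 gene lists in each array from each gene's mean over all arrays, by time after naphthalene (hr), in control (blue) and Cebpa d/d (orange) mice; shapes are replicates, n is the number of genes, and each panel has its own vertical scale. The matrix genes, smooth muscle and proliferation panels are lowest at 3 hr and highest at 72 hr in control mice; cardiac muscle genes are highest in the Cebpa d/d 0 hr arrays.

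Cardiac muscle genes set the Cebpa d/d 0 hr arrays apart, with 8 of 12 higher than in control at 0 hr (median 2.33). Over all genes 0.336% passed there in either direction, and the median of the matrix genes was 0.06. The 72 hr groups were all female, so the change to 72 hr was also read within females. In control mice 27 of the 31 genes were higher at 72 hr than in the 1 female array at 3 hr (median 0.58), and 26 were higher than in the female array at 0 hr (0.41). In Cebpa d/d mice the numbers were 27 (0.32) and 23 (0.18). From 0 to 3 hr the medians within males were -0.40 in control and -0.33 in Cebpa d/d mice, and within females -0.17 and -0.10. With sex as a term in the fit 18 of the 31 rose from 3 to 72 hr in control mice and 3 in Cebpa d/d mice, Col6a1, Col6a3 and Col14a1.

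Over the 11 contrasts 21 of the 31 genes passed at least once. The other 10 were Col5a1, Col4a1, Col4a2, Fbln5, Emilin1, Dcn, Tnc, Postn, Pdgfra and Pdgfrb. They were of different kinds: the highest and lowest group means differed by 0.18 for Col5a1, 0.19 for Col4a1 and 0.20 for Emilin1, while Tnc, with group means from 6.70 to 7.59, had a spread of up to 0.88 (SD, n = 3) within a group.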

How the data were processed

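RNA of 18 mouse airway samples was labelled with biotin and hybridised to 18 Affymetrix arrays. The deposited values are log2 expression values. Per the submitters' processing notes the authors summarised probe sets by RMA, and the RMA version is not given in the sources used here. Of 35557 probe sets 21789 named a single gene, 1621 named several and 12147 named none in the platform annotation. The probe set with the highest mean was kept for each of 19938 genes. Group means were fitted over all 18 arrays with limma 3.58.1 in R 4.3.3 (lmFit, eBayes), without covariates, and tests were two-sided with Benjamini-Hochberg adjustment over all genes in each contrast. The fit was tested on simulated data. With 3 arrays a group, their number limits precision.

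The members and lists were chosen with earlier results of these data known. Array values are given for the 16 genes with the smallest adjusted p among members that passed without overlap (Col6a3, Col6a1, Tcf21, Bgn, Col3a1, Col5a2, Col1a2, Mfap5, Col6a2, Col14a1, Sparc, Mfap4, Eln, Lum, Loxl1 and Col1a1). Other members' array values, and pathway genes beyond the 4 smallest adjusted p of a list, were chosen after their values were seen. Alternatives were array weights, centring, a filter on dim genes, the mean of a gene's probe sets, fits of 2 or 4 groups only, a replicate block, sex as a term, a trended robust variance, and leaving out each array or both arrays in doubt. The within-sex values were added after seeing the data.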

Additional observations from a re-analysis of the deposited data

Results flagged for a closer look

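Col6a1, a chain of collagen VI, lay on opposite sides of control in Cebpa d/d mice at 2 times. At 3 hr its Cebpa d/d arrays, at 8.16, 8.13 and 8.22, were all above the control arrays, at 8.03, 8.03 and 7.90, a difference of 0.18. At 72 hr they read 8.38, 8.78 and 8.82, all below the control arrays at 8.95, 8.92 and 9.00, a difference of -0.29, or -0.15 without Cebpa d/d 72 hr replicate 1. The difference between the 2 times was not tested, and neither genotype difference passed.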

How the results depend on the processing

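The rise of the matrix genes from 3 to 72 hr in control mice was called for 17 to 21 of the 31 in every alternative. None of the 40 called differences of the 16 genes named by rule changed sign in an alternative that tested it. They were picked for small adjusted p, so a change of sign was unlikely. Of the 40, 17 no longer passed with only the contrast's groups in the fit, 13 without Cebpa d/d 72 hr replicate 2 and 12 with sex as a term. Uncalled values did change sign, such as the 72 hr genotype difference of Fn1 (-0.52, or 0.02 without Cebpa d/d 72 hr replicate 1) and the median of the 3 hr interaction (0.01, or -0.04 with array weights). Counts at 0 in the genotype contrasts and interactions were 0 in every alternative, where few genes of any kind pass. Leaving out 1 array gave 1 to 7 genes for 3 against 0 hr and 3 to 13 for 72 against 0 hr in control mice. In Cebpa d/d mice it gave 0 to 4 for 3 against 0 hr, 0 to 8 for 72 against 0 hr and 1 to 17 for 72 against 3 hr. With only the contrast's groups in the fit the counts were 0 for control 3 against 0 hr and, in Cebpa d/d mice, 3 for 3 against 0 hr, 0 for 72 against 0 hr and 3 for 72 against 3 hr. Without both arrays in doubt they were 3 for control 3 against 0 hr, 8 for Cebpa d/d 3 against 0 hr and 9 for Cebpa d/d 72 against 0 hr. With sex as a term they were 5 for control 72 against 0 hr and, in Cebpa d/d mice, 0 for 72 against 0 hr and 3 for 72 against 3 hr. Array weights gave 3, 7 and 21 in Cebpa d/d mice for 3 against 0, 72 against 0 and 72 against 3 hr. Centring moved the median of all genes by at most 0.036, and for Cebpa d/d 72 against 3 hr gave 9 genes, with 3.6% of all genes higher and 4.37% lower against 4.88% and 3.67%. The causes of these moves were not tested.

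Same-numbered arrays deviated with correlations of -0.29 to 0.20, so the numbers were not taken to pair the samples. The replicate block gave 7 genes for control 72 against 0 hr, 4 for control 3 against 0 hr, 19 for control 72 against 3 hr, 11 for Cebpa d/d 72 against 3 hr and 1 for Cebpa d/d 72 against 0 hr.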
